A study of Mus musculus with 28 samples.

Results

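Cd274 encodes PD-L1, the main ligand of the inhibitory T cell receptor PD1. It was followed as 1 gene of the 12721 in a table of cytokine-treated MC38 cells and of the 12948 in a table of MC38 cells cultured with T cells. MC38 is a mouse colon tumour line, and every library compared here was labelled as RNA of that line, with no genetic change named. The first table, called in vitro here, held 10 libraries, 2 each from untreated cells, cells given TNF, cells given IFNG, cells given both cytokines, and cells given supernatant of a co-culture. The second table held 9 libraries, 3 each from MC38 alone, co-cultures of MC38 and OT1 T cells with an isotype antibody (isotype), and the same co-cultures with an anti-PD1 antibody (anti-PD1). OT1 T cells are CD8 T cells with a transgenic receptor for an ovalbumin peptide. The labels do not state whether these MC38 cells carried that antigen, nor how they were separated from the T cells. Cytokines and T cells acted for 6 h, and the time with supernatant is not recorded. The 9 libraries of OT1 T cells among the 28 samples were not analysed here.

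PD-L1 is a cell surface protein of the B7 family. When it binds PD1 on an activated T cell, it dampens signalling from the T cell receptor, and antibodies against PD1 block that contact. IFNG, which activated CD8 T cells secrete, is the best known inducer of PD-L1 on tumour cells. It acts through the receptor-bound kinases JAK1 and JAK2, and the transcription factor IRF1 is among the genes it switches on. IRF1 binds short elements in target promoters, Cd274 among them. TNF signals mainly through NF-kB.

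In GENCODE (build GRCm38), Cd274 (ENSMUSG00000016496.7) lies on the plus strand of chromosome 19 from 29367455 to 29388095 and has 7 exons. The libraries read the 3' end of transcripts, which for Cd274 is the last exon, at 29385390 to 29388095, whose 2706 bases hold a 3' UTR of 2686 bases. An annotated antisense gene, AC119228.1, overlaps 3 of the 7 exons. It does not overlap the last, and it ends 3624 bases before the end of Cd274. AC119228.1 is in neither table, and no source used here says if reads were counted by strand.

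Because IRF1 acts at the promoter, the bases before the start of Cd274 are shown with the IRF-type element in capitals. The search covered 300 bases of the RefSeq promoter table (GRCm38.p6), from 29367188 to 29367487 on chromosome 19. The 250 bases that precede the listed start, chr19:29367188-29367437 on the plus strand, are printed 5′ to 3′.
Cd274 promoter: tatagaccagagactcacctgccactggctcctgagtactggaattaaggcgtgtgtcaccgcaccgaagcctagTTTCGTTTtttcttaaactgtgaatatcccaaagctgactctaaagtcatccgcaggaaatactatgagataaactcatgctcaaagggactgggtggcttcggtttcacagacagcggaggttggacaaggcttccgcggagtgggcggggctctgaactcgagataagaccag
On both strands, the letters AANNGAAA, the core of an IRF element, matched 1 time, on the minus strand at 29367263 to 29367270, 175 to 168 bases before the start. Of all 32851 promoters of that length in the table, 23.9% held such a match, so the letters are common. GAS elements, the gamma-activated sites of IFNG target genes, are spelled TTCNNNGAA. These letters had no match in the Cd274 window, against 8.3% of all promoters. A short NF-kB form, GGNNNTTCC, had none either, against 18.5%. Bases of the window up to 29367390, the IRF match among them, also lie in Plgrkt. GENCODE places that minus-strand gene at 29348599 to 29367390. The RefSeq gene entry of Cd274 begins at 29362107, and the bases before that start were not searched.

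The labels or the markers raise a doubt about 3 libraries. The third anti-PD1 library was titled and labelled as untreated, whereas its description names the co-culture with PD1 antibody, and it was placed by the description. The second isotype library names OT2, not OT1, in its description. The third library of MC38 alone carried T cell transcripts. Of 11 T cell markers 7 were in the co-culture table (Cd3d, Cd2, Cd8a, Cd8b1, Ptprc, Lck and Pdcd1), and their summed level was 27.2 CPM (read counts scaled to a common library total) there. It was 2.02 and 2.20 CPM in the other libraries of MC38 alone and 23.5 to 32.4 CPM in the 6 co-cultures. This library was also the shallowest of its table, at an implied 3730000 reads. Implied depth reached 11000000 reads in that table and spanned 3360000 to 11200000 in vitro. The shallowest in vitro library was the second with both cytokines, whose partner was at 7150000 reads. In the in vitro table only Lck of the 11 markers was present, at 0.109 to 5.07 CPM. It was highest in the second library with both cytokines. No B cell marker of 4 was in either table. Among 8 markers of colon epithelium, only Cdh1 was in the in vitro table and 5 were in the co-culture table, at a summed 1.61 to 33.3 CPM. Krt20, Cdx2 and Vil1 were in neither, so the defining markers of the labelled tissue of origin were low or absent from the tables.

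Cd274 was low in untreated cells and in cells given TNF, and higher in cells given IFNG, alone or with TNF, or co-culture supernatant. The 2 untreated libraries stood at log2 CPM of 1.01 and 1.69, or 2.02 and 3.23 CPM. With TNF they were 1.94 and 1.63. IFNG gave 4.06 and 4.38, or 16.6 and 20.9 CPM. Both cytokines together gave 4.53 and 4.80. Supernatant gave 5.15 and 4.02, the widest pair. Every library that had received IFNG or supernatant was above every library that had not. The TNF pair overlapped the untreated pair, and the supernatant pair spanned the 2 IFNG libraries and the 2 with both cytokines. At these levels the untreated libraries rest on few reads. Counting the distinct lower values in a library gives an approximate read count, and 13 and 25 values lay below Cd274 in the untreated libraries, against 93 to 359 with IFNG or supernatant.

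**Figure D1:**
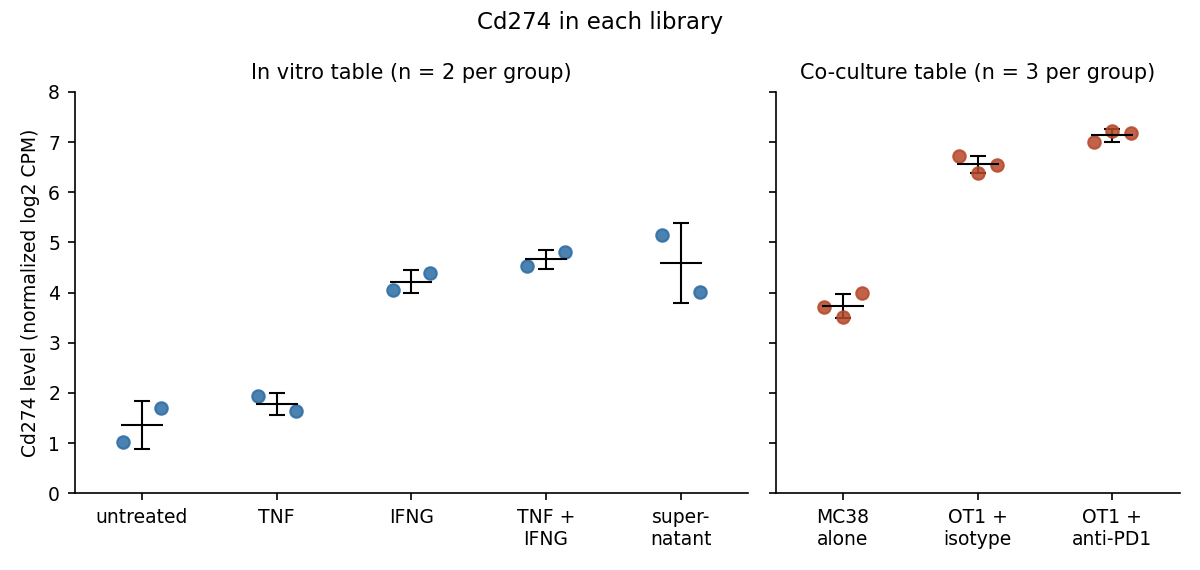
Cd274 level in every library, as deposited log2 CPM (vertical axis), for the 5 in vitro groups and the 3 co-culture groups; points are libraries, and the short lines with error bars are group means ± SD. The 4 untreated and TNF libraries lie between 1.01 and 1.94 and the 6 others of the in vitro table between 4.02 and 5.15, and in co-culture MC38 alone lies between 3.51 and 3.99 and the 6 libraries with T cells between 6.39 and 7.23; the tables were normalized separately, so levels cannot be set across them.

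Ordered by mean log2 CPM ± SD (n = 2 each), the in vitro groups ran from untreated at 1.35 ± 0.48 through TNF at 1.79 ± 0.22 to IFNG at 4.22 ± 0.23, supernatant at 4.58 ± 0.80 and both cytokines at 4.67 ± 0.19. The step from TNF to IFNG was the one between neighbours that passed the test. Untreated and TNF, IFNG and supernatant, and supernatant and both cytokines were not told apart by the test.

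IFNG raised Cd274 7.30-fold over untreated cells (95% interval 4.03 to 13.2). The log2 change was 2.87 ± 0.38 (SE), with an adjusted p of 0.0136 from limma with Benjamini-Hochberg adjustment over all genes, as for every adjusted p here. Of the 12720 genes tested, 45 passed in that comparison, or 0.354%, all of them higher, and the change of Cd274 ranked 46th from the top by size. The call was lost on leaving out any of 3 of the 10 libraries: without the first untreated library the adjusted p was 0.113, without the first IFNG library 0.0924 and without the second 0.128, while the log2 change remained between 2.53 and 3.21. Both cytokines together raised Cd274 9.95-fold, a log2 change of 3.31 ± 0.38 with an adjusted p of 0.00296. There 1147 genes, 9.02% of those tested, passed, a count that ran from 88 without the second untreated library to 2165 without the second supernatant library. The call of Cd274 held in each fit that left out 1 library. Supernatant raised it 9.39-fold, by 3.23 ± 0.38 with an adjusted p of 0.00509, where 0.448% of genes passed. Without the first untreated library that adjusted p was 0.0509. These 3 comparisons share the untreated libraries.

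TNF alone gave a log2 difference of 0.43 ± 0.38, with a 95% interval of -0.42 to 1.29 and an adjusted p of 0.888. It was 0.096 without the first untreated library, 0.77 without the second and 0.28 without the first TNF library. In that comparison 0.275% of genes passed. The interval reaches beyond a doubling, so these libraries, 2 a group, do not settle whether TNF had a modest effect on Cd274. Added to IFNG, TNF made a difference of 0.45 ± 0.38 (interval -0.41 to 1.31, adjusted p 0.637), where 0.236% of genes passed. Without the first IFNG library it was 0.28, and 0.61 without the second. The interaction, which asks whether the change with both cytokines departs from the sum of the separate changes, was 0.01 ± 0.53 (interval -1.20 to 1.23, adjusted p 0.999), where 0.0157% of genes passed. Its sign turned when any of 4 libraries was left out: it was -0.33 without the second untreated library, -0.14 without the second TNF library, -0.15 without the first IFNG library and -0.12 without the second library with both cytokines.

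Set against TNF in place of untreated cells, Cd274 was 5.40-fold higher with IFNG (2.43 ± 0.38, adjusted p 0.0281, 0.542% of genes past the threshold). It was 7.37-fold higher with both cytokines (2.88 ± 0.38, adjusted p 0.0157, 0.417% past) and 6.95-fold higher with supernatant (2.80 ± 0.38, adjusted p 0.0127, 0.645% past). Each of these calls was lost without either of the TNF libraries, with adjusted p-values of 0.131 and 0.252 for IFNG, 0.0752 and 0.136 for both cytokines and 0.0781 and 0.137 for supernatant. The IFNG call was also lost without the first or second IFNG library (0.155 and 0.236) or the first library with both cytokines (0.0502). The call for both cytokines was lost without the second library of that group (0.116), and that for supernatant without its first library (0.0501). Supernatant and IFNG differed by 0.36 ± 0.38 (interval -0.50 to 1.22, adjusted p 0.9998), where 0.00786% of genes passed. Without the first supernatant library that difference was -0.20. Supernatant and both cytokines differed by -0.08 ± 0.38 (interval -0.94 to 0.78, adjusted p 0.928), where 0.236% of genes passed. That difference was 0.48 without the second supernatant library and 0.05 without the second library with both cytokines.

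**Figure D2:**
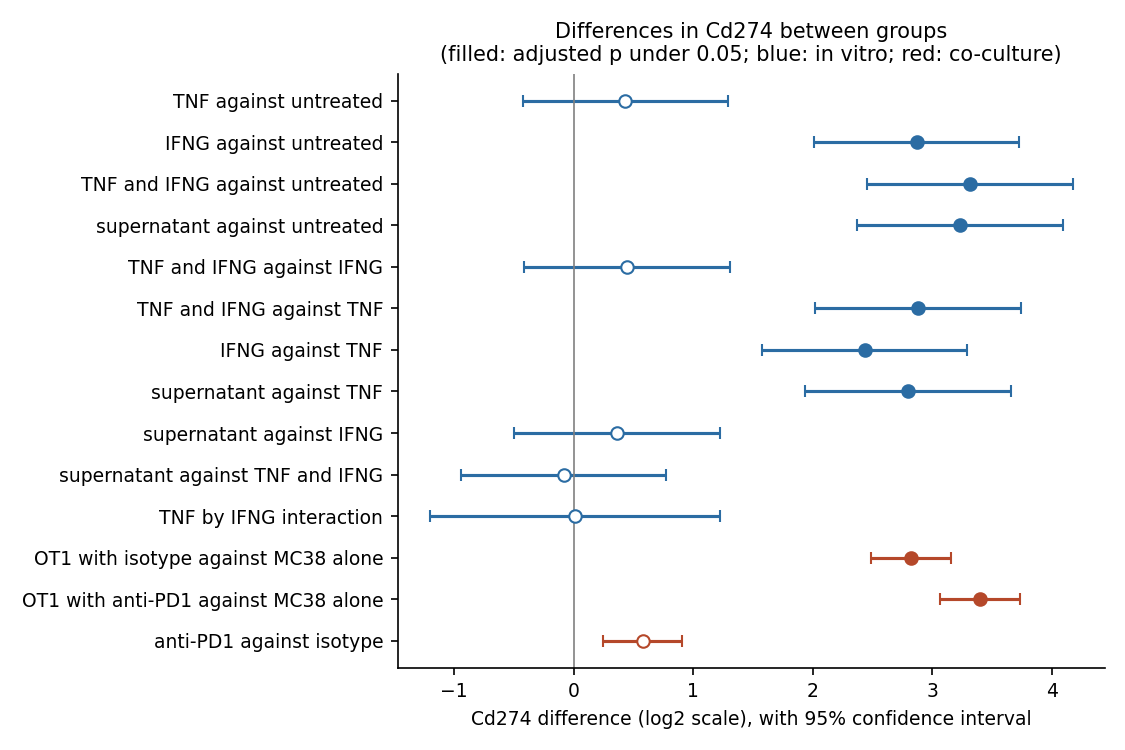
Log2 difference of Cd274 in each of the 14 comparisons (horizontal axis) with its 95% confidence interval, from the limma fit of its table. The intervals of TNF against untreated, of both cytokines and of supernatant against IFNG, of supernatant against both cytokines and of the interaction include 0, and that of anti-PD1 against isotype, 0.25 to 0.91, does not, although its adjusted p is 0.9998.

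In the co-culture table Cd274 rose in the presence of OT1 T cells, with either antibody. MC38 alone stood at log2 CPM of 3.71, 3.51 and 3.99, or 11.4 to 15.9 CPM. With T cells and the isotype antibody the libraries were at 6.73, 6.39 and 6.55, or 83.8 to 106 CPM. With T cells and anti-PD1 they were at 6.99, 7.23 and 7.19, or 127 to 149.7 CPM. No 2 of the 3 groups overlapped. The share of all genes without overlap was not counted. Group means ± SD (n = 3 each) were 3.74 ± 0.24, 6.56 ± 0.17 and 7.13 ± 0.12.

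The increase over MC38 alone was 7.06-fold with isotype (log2 2.82 ± 0.15, interval 2.49 to 3.15, adjusted p 9.1e-07) and 10.5-fold with anti-PD1 (3.40 ± 0.15, interval 3.07 to 3.73, adjusted p 2.7e-07). In these comparisons 13.9% and 16.1% of the 12707 genes tested passed, and Cd274 ranked 152nd and 94th from the top by size. Both calls held in each fit without 1 library, where the changes ran from 2.71 to 2.95 and from 3.29 to 3.52. Without the library of MC38 alone that held T cell transcripts they were 2.95 and 3.52. Without all 3 libraries in doubt they were 3.03 (adjusted p 2.15e-05) and 3.50 (adjusted p 1.11e-05).

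Co-culture libraries hold RNA of T cells too, which can also express Cd274, so the markers are given beside the result. The summed level of the 7 T cell markers was 24.7 to 32.4 CPM with isotype and 23.5 to 24.7 CPM with anti-PD1. In the third library of MC38 alone, where these markers summed to 27.2 CPM, Cd274 was at 15.9 CPM, far below the 83.8 CPM of the lowest co-culture library. T cell effector genes, 14 of 17 in the table, summed to 57.8 CPM in that library against 25.1 and 44.1 CPM in the other libraries of MC38 alone and 300.8 to 372 CPM in the co-cultures. Ifng itself was at log2 CPM of -1.63, -2.66 and 1.85 in MC38 alone, 6.27, 6.51 and 6.66 with isotype and 6.48, 6.49 and 6.54 with anti-PD1. The part that T cell RNA has in the Cd274 values of the co-cultures was not tested. The 9 mitochondrially encoded transcripts in the table also moved with the T cells. With isotype 7 fell (median log2 change -1.12), with anti-PD1 5 fell (median -0.92), and none rose. Over all genes, 13.9% and 16.1% passed, and the median change was -0.06 in both comparisons.

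The comparison of anti-PD1 with isotype asks whether blocking the receptor alters its ligand's transcript. Cd274 was higher in all 3 anti-PD1 libraries than in any isotype library, with a gap of 0.26 between the lowest of the first and the highest of the second. The log2 difference was 0.58 ± 0.15, or 1.49-fold (interval 1.19 to 1.88). Its unadjusted p was 0.00305 in limma, but over 12707 genes the adjusted p was 0.9998. No gene passed in this comparison, 0% of those tested. The unadjusted limma p was under 0.05 for 347 of the 12707 genes. That share is under the 0.05 that arises where no gene differs. Limma with library weights called 1 gene. Cd274 ranked 548th from the top by size. The exact two-sided permutation test over the 6 libraries gave p = 0.1, the smallest that its 20 arrangements allow. Any gene whose 2 groups do not overlap gets that p, so such a gap is not rare among genes. How many genes showed it was not counted. The difference was 0.49 to 0.67 when single libraries of these 2 groups were left out, and 0.55 without the library titled as untreated. With all 3 libraries in doubt left out it was 0.47 (adjusted p 0.9999), and 5 other genes then passed. The higher level with anti-PD1 therefore did not pass the correction for the number of genes. These 6 libraries do not settle whether Cd274 differs between the antibodies.

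The 8 genes that followed Cd274 most closely across both tables were those with the highest smaller value of the 2 Pearson correlations with Cd274, over 10 in vitro and 9 co-culture libraries, among 4208 genes that varied enough. The correlations are a description, since libraries of a group share their treatment. Psmb9, a subunit of the immunoproteasome, led with 0.97 in vitro and 0.98 in co-culture. Next came Gbp2 and Gbp7, guanylate-binding proteins, Irgm2, Tgtp2, Gm4841 and Ifi47, immunity-related GTPases or relatives of them, and Crem, a transcription factor that answers cyclic AMP. The lowest of the smaller correlations was 0.96. Irgm2 overlaps Igtp, and Tgtp2 has a near-identical copy, Tgtp1, so reads of these genes may be split between the copies.

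Since these libraries chose the 8 genes, their rise where Cd274 rose follows from the choice and is given as a description. With isotype co-culture all 8 rose, by log2 2.17 to 6.88, around the 2.82 of Cd274. With IFNG 7 of 8 rose. Psmb9, whose libraries were at 4.23 and 4.49 against 3.24 and 3.48 in untreated cells, did not pass (1.00 ± 0.22, adjusted p 0.197). With TNF none of the 8 passed, with differences of -0.12 to 0.89. Anti-PD1 against isotype set Cd274 beside these genes: its difference was 0.58, while theirs ran from -0.22 (Gbp7) to 0.20 (Crem), with a median of -0.01 and none past the threshold. Psmb9 was at 6.70, 6.69 and 6.72 with isotype and at 6.65, 6.73 and 7.01 with anti-PD1, so its groups overlapped. Whether the difference of Cd274 departs from theirs was not tested. Genes most opposite to Cd274 were Jag1, a Notch ligand (-0.86 and -0.83), B230312C02Rik (-0.77 and -0.78) and Rasa3, a Ras GTPase-activating protein (-0.75 and -0.77).

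**Figure D3:**
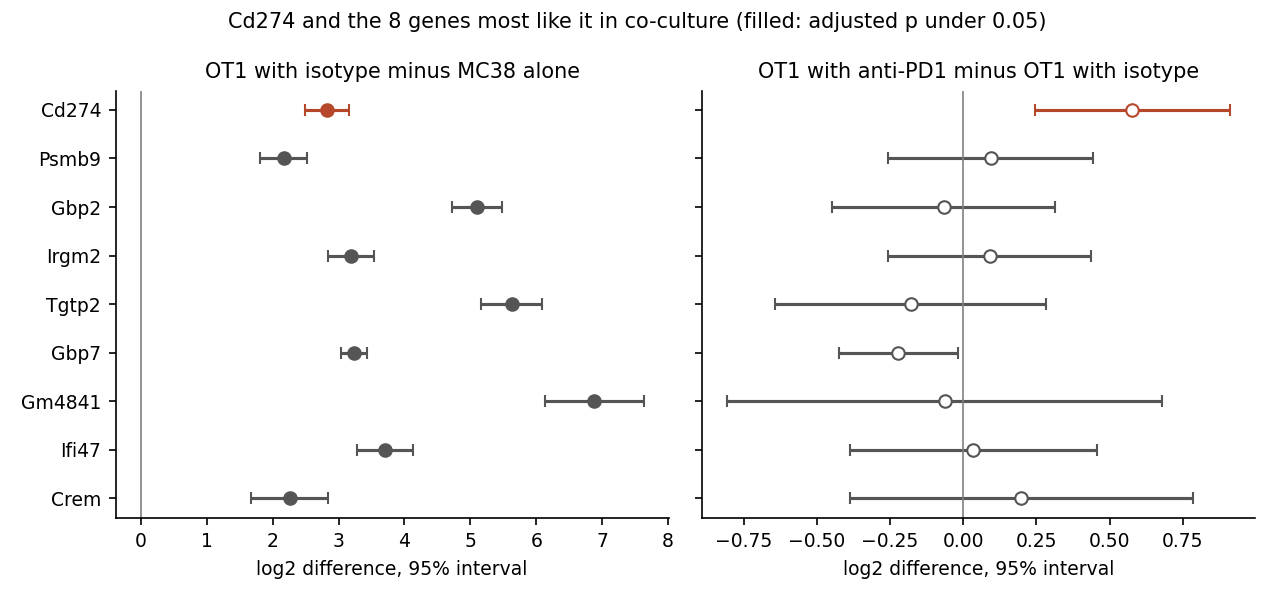
Log2 differences (horizontal axes) of Cd274 and the 8 genes most like it, between isotype co-culture and MC38 alone (left) and between anti-PD1 and isotype co-cultures (right), with 95% confidence intervals from limma (n = 3 libraries a group); filled points passed the adjusted threshold. The 8 genes were chosen for their likeness to Cd274 over these libraries. On the left all 9 genes are filled, at 2.17 to 6.88, and on the right none is, with Cd274 at 0.58 and the others between -0.22 and 0.20.

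Of the 8, 6 had an entry in the promoter table. Against 23.9% of all promoters, 5 of the 6 held the IRF letters, all but Psmb9. Their matches nearest the start are shown beside that of Cd274, each read along its gene's strand with the 8 matched bases in capitals and 8 bases on either side (GRCm38.p6).
Cd274, chr19:29367255-29367278, plus strand: aagcctagTTTCGTTTtttcttaa
Gbp2, chr3:142620596-142620619, plus strand: tcttttagTTTCACTTtcactgtc
Gbp7, chr3:142530281-142530304, plus strand: agtttcagTTTCAGTTctccatcc
Irgm2, chr11:58214907-58214930, plus strand: ggaactgaAACTGAAAgctgttcg
Tgtp2, chr11:49064265-49064288, minus strand: ggaatcgaAACCGAAAcctactct
Ifi47, chr11:49076398-49076421, plus strand: attttgtaAAAAGAAActcatttt
The match began 47 to 68 bases before the start in Gbp2, Gbp7, Irgm2 and Tgtp2, and 181 bases before it in Ifi47, nearer to the 175 of Cd274. The GAS letters were in 3 of the 6 (Gbp7, Irgm2 and Tgtp2), against 8.3% of all promoters. The NF-kB letters were in 1 (Gbp2), against 18.5%, so that count does not stand apart. A match of letters describes a window and does not show that a factor binds there.

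Among the factors that act on Cd274, Irf1 rose with TNF alone, a treatment in which Cd274 did not pass the test. Irf1 was at log2 CPM of 7.04 and 7.07 in untreated cells, 9.60 and 9.44 with TNF, 10.08 and 10.15 with IFNG, 10.47 and 10.53 with both cytokines and 10.21 and 10.27 with supernatant. TNF alone thus raised Irf1 by 2.47 ± 0.12 (interval 2.20 to 2.74, adjusted p 6.21e-05), where the interval for Cd274 was -0.42 to 1.29. Whether the 2 genes differ in their response was not tested. Cd274 correlated with Irf1 at 0.82 across the 10 in vitro libraries and at 0.98 across the 9 co-culture libraries, as a description. Irf1 rose from 8.32, 8.25 and 7.99 in MC38 alone to 11.55, 11.43 and 11.62 with isotype, by 3.35 ± 0.11 (adjusted p 4.73e-08). With anti-PD1 it was at 11.64, 11.70 and 11.55, overlapping isotype, with a difference of 0.10 ± 0.11.

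**Figure D4:**
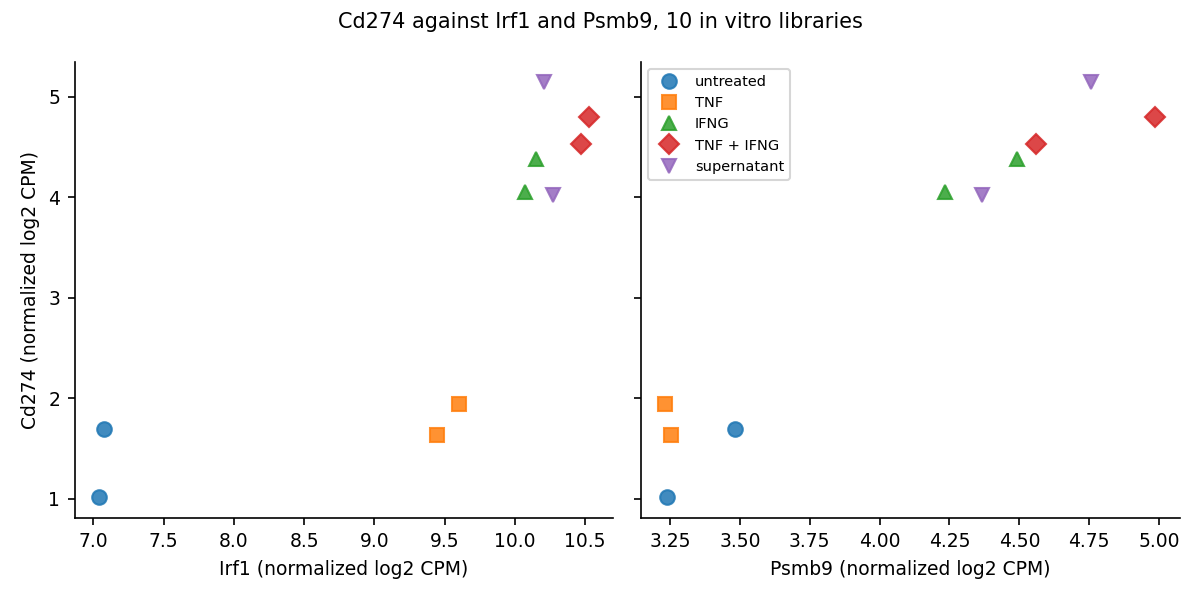
Cd274 level (vertical axis) against the level of Irf1 and of Psmb9 (horizontal axes of the 2 panels), all in normalized log2 CPM, in the 10 in vitro libraries, with the symbol giving the group. The 2 TNF libraries lie at Irf1 of 9.44 and 9.60 but at Cd274 of 1.63 and 1.94, apart from the IFNG libraries at Irf1 of 10.08 and 10.15 and Cd274 of 4.06 and 4.38; in the Psmb9 panel the TNF libraries lie beside the untreated ones.

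The list of IFNG signalling genes runs from receptor to inhibitors. Of its 16 members tested in vitro, 4 rose with IFNG and none fell: Irf1 (3.06), Stat2 (2.65), Irf9 (1.81) and Stat3 (1.32). The list's median change was 0.55, against 0.04 over all genes, and 0.354% of all genes passed. With both cytokines 9 rose, against 9.02% of all genes past the threshold. With supernatant, where 0.448% of all genes passed, 5 rose, among them Socs1, the inhibitor of JAK kinases that IFNG induces (2.41 ± 0.32, adjusted p 0.012). With TNF 1 rose, Irf1, where 0.275% of all genes passed. In co-culture 11 of 17 rose with isotype (median 0.90, 13.9% of all genes past the threshold). With anti-PD1 13 rose and 1 fell, Jak1 (-0.68), with a median of 0.99 and 16.1% of all genes past. Anti-PD1 against isotype gave none in either direction, with a median of -0.03.

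The list of transcription factors and cofactors linked to Cd274 had 18 members, Irf1 and Stat3 among them, and all were tested. With TNF, where 0.275% of all genes passed, 2 rose, Irf1 and Junb, a subunit of AP-1 (1.95). With both cytokines, where 9.02% passed, 6 rose and 1 fell, Irf2bp2, a corepressor that acts with IRF2 (-1.27 ± 0.17, adjusted p 0.00802). Irf2bp2 also fell with isotype co-culture (-0.69) and with anti-PD1 co-culture (-0.62), as did Ep300, a histone acetyltransferase (-0.79 and -0.72), while 10 of the 18 rose in each. Of all genes, 13.9% and 16.1% passed in these comparisons. The median change with isotype was 1.02, against -0.06 over all genes.

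Regulators of the PD-L1 protein and of the Cd274 transcript are read against the share of all genes past the threshold, 9.02% with both cytokines, 13.9% with isotype and 16.1% with anti-PD1. Of 17 tested genes for stability and modification of the protein, none passed with TNF, IFNG or supernatant. With both cytokines 1 fell, Stt3a, a catalytic subunit of oligosaccharyltransferase (-0.88). With isotype 1 rose and 2 fell (list median -0.07, against -0.06 over all genes). With anti-PD1 2 rose and 2 fell (list median -0.07), and the largest of these was Cmtm6, which keeps PD-L1 at the cell surface (0.92 ± 0.18, adjusted p 0.00754). With isotype Cmtm6 was at 0.59 ± 0.18 (adjusted p 0.0592), and between the antibodies it differed by 0.33 ± 0.18, which did not pass. Of 10 genes that act on transcript stability, 1 rose and 2 fell with both cytokines (list median 0.18), and 2 rose and 1 fell with isotype and with anti-PD1 (list medians -0.0032 and -0.10). Zfp36, which encodes the mRNA decay factor tristetraprolin, rose with both cytokines (2.27 ± 0.42, adjusted p 0.0229), with isotype (5.18 ± 0.47, adjusted p 4.88e-05) and with anti-PD1 (5.38 ± 0.47, adjusted p 3.73e-05). Khsrp, which encodes another decay factor, fell with both cytokines (-0.71) and with isotype (-0.48).

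Of 19 other ligands of immune checkpoints on the list, 10 were tested. None passed with TNF, IFNG or supernatant, where at most 0.448% of all genes did, so these counts do not set the list apart. The list's median change with IFNG was -0.33. With both cytokines 1 of the 10 rose, a count near the 9.02% of all genes past the threshold. It was Cd47, the signal that restrains phagocytes (0.88 ± 0.16, adjusted p 0.0197). In co-culture, where 13.9% (isotype) and 16.1% (anti-PD1) of all genes passed, 2 rose, Cd47 (1.31 with isotype, 1.28 with anti-PD1) and Lgals9, which encodes galectin-9 (1.47 and 1.20). These 2 of 10 are near the shares of all genes too. None passed between the antibodies. Pdcd1lg2, which encodes PD-L2, the other ligand of PD1, begins 22824 bases beyond Cd274 and was not among the genes tested in either table. MHC class I genes, which present antigen to the T cells, gave 2 of 22 higher with IFNG, where 0.354% of all genes passed, and 6 with both cytokines, where 9.02% did. Of these 22, 15 were higher with isotype and 13 with anti-PD1, where 13.9% and 16.1% of all genes passed, and none fell. The list's median change was 0.11 with IFNG, 0.15 with both cytokines, 0.79 with isotype and 0.77 with anti-PD1.

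**Figure D5:**
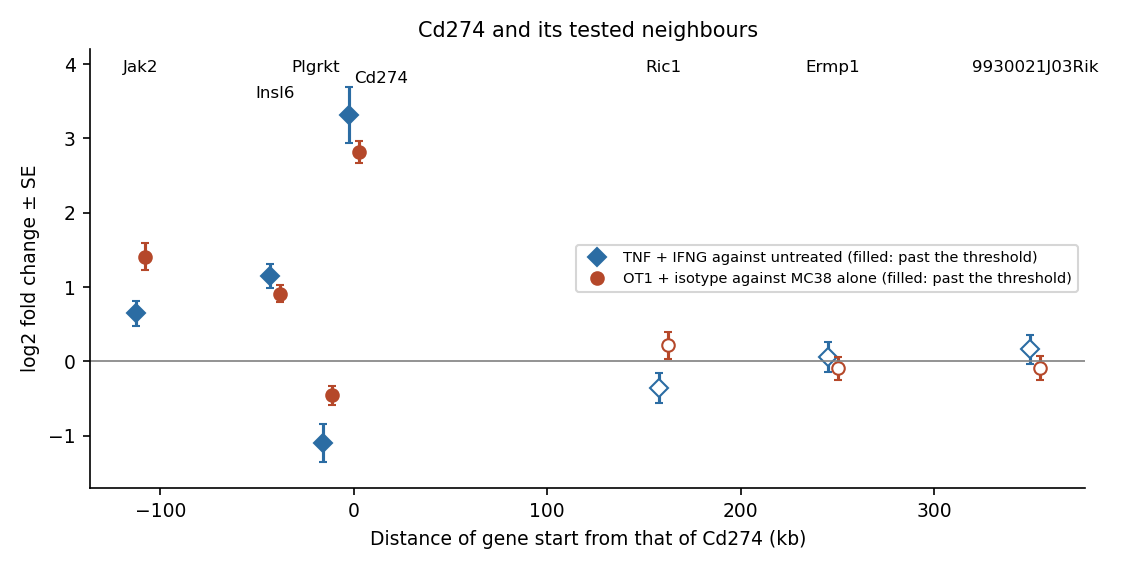
Log2 change, with SE bars, of Cd274 and of the 3 tested genes on each side of it along chromosome 19. Genes are placed by the lower coordinate of their RefSeq entry, in kb from that of Cd274, 29362107 (horizontal axis). For a minus-strand gene such as Plgrkt this is the far end, not the start. Changes are for both cytokines against untreated cells and for isotype co-culture against MC38 alone. Filled points passed the adjusted threshold. Cd274 stands at 3.31 and 2.82, while the neighbours lie between -1.10 and 1.15 with both cytokines and between -0.46 and 1.41 with isotype co-culture.

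Of the 3 tested genes on either side of Cd274, the 3 before it passed with both cytokines and with isotype co-culture. Of all genes, 9.02% and 13.9% passed there. The 3 changed by smaller amounts than Cd274 or downward. None of the neighbours passed with TNF, IFNG or supernatant, whereas Cd274 passed with IFNG and with supernatant. Jak2, 3 genes before it and itself a kinase of the IFNG receptor, changed by 0.40 with IFNG, which did not pass. It rose by 0.65 ± 0.16 with both cytokines (adjusted p 0.0461) and by 1.41 ± 0.18 with isotype co-culture (adjusted p 0.000494). Insl6, an insulin-like peptide gene between Jak2 and Plgrkt, rose by 1.15 with both cytokines (adjusted p 0.00975) and by 0.91 with isotype (adjusted p 0.000631). Plgrkt, a plasminogen receptor gene that runs from the neighbouring start in the opposite direction, fell by 1.10 with both cytokines (adjusted p 0.0375) and by 0.46 with isotype (adjusted p 0.0467). With anti-PD1 co-culture it differed from MC38 alone by 0.01 ± 0.13 (adjusted p 0.978). Between the antibodies Plgrkt differed by 0.46 ± 0.13, beside the 0.58 ± 0.15 of Cd274, and neither passed the adjusted threshold. Ric1, Ermp1 and 9930021J03Rik, beyond Cd274, did not pass with both cytokines or with isotype co-culture.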

How the data were processed

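Per the labels' protocols, the libraries were of the QuantSeq 3' mRNA type, which samples transcript ends, so values do not grow with length. Named in the submitters' processing notes are HISAT2, featureCounts (Subread), cutadapt 1.7, FastQC and limma, with builds GRCm38 and mm10 and no settings. The authors deposited normalized log2 CPM values. Library sums were 998481 to 998505 CPM in vitro and 993229 to 993249 CPM in co-culture. The median gene was at 14.95 to 15.19 CPM and 14.48 to 14.61 CPM. Sums and medians this alike are more than scaling to a library total gives, so a value may depend on its rank in the library. The method behind them was not tested. The unit was read from the values, and each table was normalized on its own, so tests were made within tables. Depth was inferred from distinct low values. A shift of most transcripts together cannot be seen in such values.

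Each table had a single fit over all its groups (limma 3.58.1, R 4.3.3, empirical Bayes with intensity trend), which left 5 residual and 3.74 prior degrees of freedom in vitro and 6 and 4.12 in co-culture. Tested genes, 12720 and 12707, reached a log2 of 0 in 2 (in vitro) or 3 (co-culture) libraries, the smallest group size. P-values are two-sided, adjusted by Benjamini-Hochberg across tested genes, and the threshold was 0.05. The labels do not say that replicates came from separate cultures, so the spread behind the p-values is that among these samples and may be technical only. The script was tested on simulated data.

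Cd274 was reported in all 14 comparisons. List members, the 8 genes most like Cd274 and 3 most opposite to it (among genes varying by a log2 of at least 1 in each table), and 3 tested neighbours on each side could be named. Cd274 and the lists were chosen with earlier results of these data known. Lists are described by counts and medians beside all genes, with no test, and some listed genes are not reported here. Alternatives were no or a stricter filter, no trend, library weights, a pseudocount of 1 CPM, a replicate block, fits of the compared groups only, and leaving out each library. The fit without the 3 libraries in doubt was chosen after seeing the data.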

Additional observations from a re-analysis of the deposited data

How the results depend on the processing

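Each of the 14 comparisons of Cd274 was refitted under 17 alternatives. In co-culture the direction and the side of the threshold held in all of them, and TNF against untreated, both cytokines against untreated and both cytokines against IFNG did so too. With single libraries left out, TNF against untreated ran from 0.096 to 0.77, both cytokines against IFNG from 0.28 to 0.61, IFNG against untreated ran from 2.53 to 3.21, supernatant against untreated from 2.67 to 3.79, both cytokines against TNF from 2.72 to 3.04, IFNG against TNF from 2.27 to 2.60, supernatant against TNF from 2.24 to 3.36, supernatant against IFNG from -0.20 to 0.93, supernatant against both cytokines from -0.65 to 0.48 and the interaction from -0.33 to 0.35. With only the compared groups fitted, supernatant against untreated (3.23, adjusted p 0.0915) and against TNF (2.80, adjusted p 0.0938) no longer passed. The cause of that loss was not tested. Without the intensity trend, IFNG against TNF (2.43, adjusted p 0.0766) no longer passed; the cause was not tested. With a replicate block the same comparison was lost (2.43, adjusted p 0.0690), and no other call changed. Correlations of same-numbered deviations from group means were -0.287 to 0.0941 in vitro and -0.0541 to 0.109 in the co-culture table. Those of differently numbered libraries reached 0.287 and 0.0717. With 2 libraries a group, the in vitro values of the 2 kinds mirror each other in sign. They therefore cannot settle whether replicate numbers pair the libraries. The number of genes past the threshold, which gives the background of each call, depended more on the fit. For both cytokines against untreated it was 1147 and became 467 without the trend, 656 with library weights, 594 with the replicate block and 143 with only the compared groups, where TNF gave 18, 72, 28 and 61 against 35. With only the compared groups it was 488 against 45 for IFNG, 36 against 57 for supernatant and 1282 against 2050 for anti-PD1 co-culture over MC38 alone; between both cytokines and IFNG 3 against 30, and TNF 16 against 53; between supernatant and TNF 27 against 82, IFNG 2 against 1, and both cytokines 4 against 30. Library weights gave 297 for IFNG, 172 against 69 for IFNG over TNF, 6 for supernatant against both cytokines and 1 against 0 for anti-PD1 against isotype. The replicate block gave 19 for both cytokines against IFNG, 16 for supernatant against both cytokines and 0 for supernatant against IFNG. The trend left out gave 0 for supernatant against IFNG and 1 against 2 for the interaction. Single libraries left out gave 11 to 41 genes for TNF, 29 to 50 for IFNG, 88 to 2165 for both cytokines and 46 to 65 for supernatant, each against untreated. They gave 12 to 270 for both cytokines against IFNG and 37 to 256 against TNF, 35 to 76 for IFNG against TNF, 38 to 81 for supernatant against TNF, 0 to 12 against IFNG and 12 to 486 against both cytokines, and 0 to 9 for the interaction. In co-culture they gave 1008 to 2218 for isotype, 1227 to 2565 for anti-PD1 and 0 or 1 for anti-PD1 against isotype, which had 5 without the 3 libraries in doubt. The cause was not tested. Cd274 had its fewest distinct lower values, 13 to 32, in the untreated and TNF libraries. How far depth sets the spread of Cd274 was not tested.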
